A study of Mus musculus with 36 samples.

Results

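Fmr1, Fxr1 and Fxr2 are the 3 genes of the fragile X family in mouse, and they are described here across 36 libraries of WT and FMR1 KO brain. They were chosen by gene symbol and are 3 of the 16614 genes of the count table, each with 1 row. Fmr1 encodes FMRP, the RNA-binding protein that is lost in fragile X syndrome, and Fxr1 and Fxr2 encode its autosomal paralogs. All 3 proteins carry KH domains, bind mRNA, associate with ribosomes and are present in neuronal RNA granules, where translation is held back while mRNAs are carried along dendrites and axons. FMRP is known in the brain as a repressor of translation that sits on the coding sequence of many synaptic mRNAs. The questions asked here are how far the knockout lowers each readout of Fmr1 and whether the readouts of its paralogs differ between the genotypes.

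Brains of 5-day-old C57BL/6 mice (WT) and of FMR1 KO mice were fractionated on sucrose gradients, with 10 whole brains pooled in a preparation. Ribosome-protected fragments (RPFs, the stretches of mRNA that a ribosome shields from nuclease) were sequenced from the pellet, which is rich in RNA granules, and from fraction 5/6, which holds ribosome clusters, and RNA was sequenced from whole brain. Each material was sequenced in 3 libraries per genotype in 2 preparations, a standard nuclease digestion in 10 mM MgCl2 and a low nuclease digestion in 2.5 mM MgCl2, which gives 12 groups. Neurons, glia, vessels and blood of a whole brain are mixed in every library, so fewer cells of a type and less RNA per cell cannot be told apart. The study lists the knockout as FMR1 -/y from Jackson Laboratories. The part of Fmr1 that its allele interrupts was not used here, and counts over the whole gene do not separate that part from the rest. The labels do not say that replicates came from separate litters, and p-values measure the spread between pooled preparations.

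Values are CPM, a gene's counts scaled by the total of its library. Cdk8 was left out of the totals because it took 36.7% to 63.4% of the RPF counts of the standard preparation. The standard RPF libraries then held 4284209 to 21274803 counts and the low nuclease RPF libraries 22378936 to 60377525. RNA-seq libraries held 112240104 to 147207607 counts in the standard preparation and 38505915 to 141497783 in the low nuclease preparation. The summed level of 6 neuronal markers ranged from 6381 to 14493 CPM over the 18 standard libraries, and Apoa2, the liver marker that the table holds, reached at most 0.998 CPM. Of the cell type markers tested, 0 were called between the genotypes in any material of the standard preparation, where at most 0.0736% of all genes were. Several libraries stand apart. The library labelled WT fraction 5/6 standard replicate 3 held 39 Fmr1 counts and 21 counts of Wdfy1, a gene at low levels in the FMR1 KO libraries, where the other two libraries of that label held 604 and 1663 Fmr1 counts and 194 and 527 Wdfy1 counts. This is against its genotype label. Its material label is in doubt too, as the 10 target mRNAs described further on summed to 11345 CPM there, against 1437 to 3124 CPM in the other fraction 5/6 libraries of the preparation. The standard pellets held 10414 to 12449 CPM, except FMR1 KO replicate 2, which held 5726 CPM. The library labelled WT fraction 5/6 standard replicate 3 is called by its label throughout. The main fold changes of the 3 genes that use it are given with and without it. Fits under other settings include it unless stated, among them all groups of the standard preparation in 1 fit. In the low nuclease RNA-seq, 10 genes took 82.4% to 85.0% of the counts of WT replicate 2 and FMR1 KO replicates 2 and 3.

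The gene models differ in ways that bear on the counts. Fmr1 (ENSMUSG00000000838) lies on the X chromosome at chrX:68678541-68717963 (GRCm38, plus strand), and its listed transcript ENSMUST00000114655 has 17 exons and a coding sequence of 1893 nt. Fxr1 (ENSMUSG00000027680) lies at chr3:34019943-34070322 on the plus strand and has a coding sequence of 2031 nt in ENSMUST00000001620. Fxr2 (ENSMUSG00000018765) lies at chr11:69632990-69653297 on the plus strand and has a coding sequence of 2022 nt in ENSMUST00000018909, with a 5′ UTR of 328 nt and a 3′ UTR of 601 nt. Translated, the 3 coding sequences were 66.6% identical between Fmr1 and Fxr1, 59.9% between Fmr1 and Fxr2 and 69.0% between Fxr1 and Fxr2. Between the listed transcripts the longest shared run of bases was 20 nt, which is shorter than an RPF. Of the exons of Fxr1, 178 bases are shared with Dnajc19 on the opposite strand, a gene that encodes a mitochondrial chaperone partner and that measured 31.6 ± 2.29 CPM (SD, n = 3) in the WT pellet. Reads in those bases cannot be assigned to one of the pair unless strand was used in counting.

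Pellet RPFs of Fmr1 were lower in FMR1 KO. In the standard preparation the WT libraries held 67.8, 67.1 and 64.6 CPM and the FMR1 KO libraries 4.93, 4.79 and 4.81 CPM. The groups lay far apart, with means of 66.5 ± 1.71 and 4.84 ± 0.077 CPM (SD, n = 3 each), and the FMR1 KO pellet kept 7.28% of the WT level. The counts behind these values were 770 to 1443 in WT and 60 to 76 in FMR1 KO. edgeR's quasi-likelihood test gave a log2 fold change of -3.72 (SE 0.174, Benjamini-Hochberg adjusted p = 0.00512), the lowest p of the 13356 genes tested. Of these genes, 0.015% were called, and 2.42% had libraries that lay apart and lower in FMR1 KO. With all groups of the preparation in 1 fit the fold change was -3.73 and the adjusted p was 0.200.

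**Figure D1:**
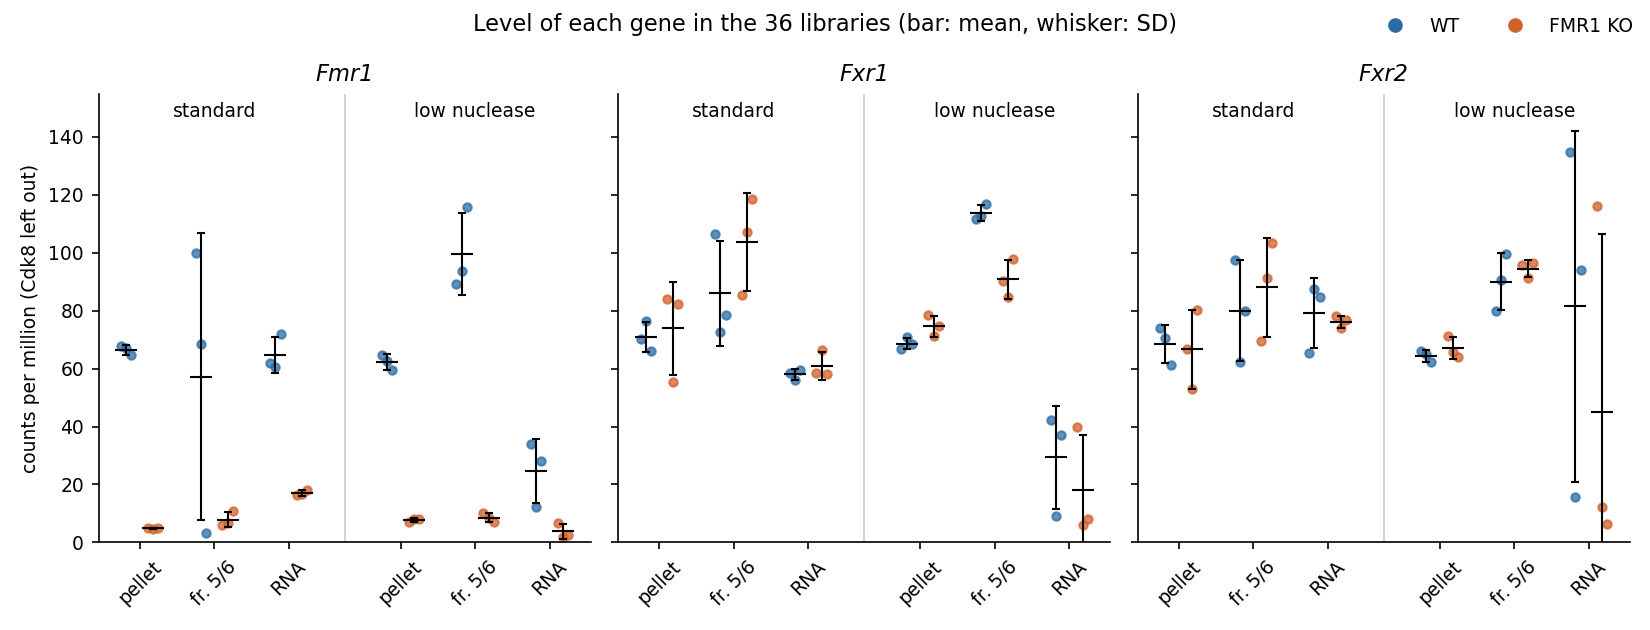
CPM (y axis) of Fmr1, Fxr1 and Fxr2 in each of the 36 libraries, by material and preparation, for WT and FMR1 KO. Points are libraries, bars are means and whiskers are SDs of 3 libraries; Fmr1 sits low in every FMR1 KO group and in 1 library labelled WT fraction 5/6, while the genotypes of Fxr1 and Fxr2 mostly overlap.

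Fraction 5/6 shows what the library that goes against its label does to Fmr1. The libraries labelled WT held 100.1, 68.6 and 3.17 CPM and the FMR1 KO libraries 5.98, 6.82 and 10.7 CPM. The lowest value of all 6 thus carried a WT label, and the groups overlapped, with means of 57.3 ± 49.4 and 7.85 ± 2.54 CPM (SD, n = 3 each). The log2 fold change was -3.27 with a 95% interval of -5.87 to -0.67 and an edgeR adjusted p of 0.826. Without the library labelled WT fraction 5/6 standard replicate 3 it was -3.83 (95% interval -4.10 to -3.56, edgeR adjusted p = 0.00137), in a comparison that then called 0.0301% of the genes. With all 6 libraries edgeR called 0% of the genes, 590 genes had an unadjusted p under 0.05, and DESeq2 called 76, Fmr1 among them with -3.26 (adjusted p = 0.026).

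In the standard preparation the RNA of Fmr1 fell less than its pellet RPFs. WT RNA-seq held 62.0, 60.6 and 71.9 CPM in the standard preparation and FMR1 KO RNA-seq held 16.4, 16.7 and 18.1 CPM. The groups did not overlap, as for 5.76% of all genes in this direction, and FMR1 KO kept 26.3% of the WT level. The log2 fold change was -1.90 (SE 0.103, edgeR adjusted p = 3.64e-05) in a comparison that called 0.0736% of the genes, and -1.89 (adjusted p = 1) with all groups of the preparation in 1 fit. Occupancy, the ratio of pellet RPFs to RNA, was therefore lower in FMR1 KO. The ratio of the mean CPM values was 1.03 in WT and 0.284 in FMR1 KO, and the interaction of genotype with material was -1.84 (SE 0.186, 95% interval -2.25 to -1.43, edgeR adjusted p = 0.00218). Of all genes, 0.0673% were called for occupancy, and with all groups of the preparation in 1 fit the value was -1.85 (adjusted p = 1).

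The RNA-seq libraries behind this occupancy also differed in Y-linked transcripts. Ddx3y, a Y-linked RNA helicase, had 4166 to 4902 counts in the WT RNA libraries and 14, 16 and 8 in the FMR1 KO RNA libraries of the standard preparation. Uty had 4 to 8 counts, Kdm5d 0 to 2 and Eif2s3y 0 in these FMR1 KO RNA libraries. The FMR1 KO pellet libraries, which form the other side of the ratio, had 421 to 588 Ddx3y counts. Fmr1 is X-linked, and the genotype and the sex of the pooled brains cannot be told apart in the standard RNA-seq.

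The low nuclease preparation repeated the Fmr1 measurements in separate libraries. Its WT pellets held 64.8, 62.5 and 59.5 CPM and its FMR1 KO pellets 6.95, 8.19 and 7.94 CPM. Its WT fraction 5/6 libraries held 89.3, 93.9 and 116 CPM and those of FMR1 KO 9.99, 8.55 and 6.92 CPM. Both pairs of groups lay apart, as for 8.8% of all genes in the pellet and 7.8% in fraction 5/6 in this direction, and FMR1 KO kept 12.4% of the WT level in the pellet and 8.52% in fraction 5/6. The log2 fold changes were -2.92 (SE 0.0882, edgeR adjusted p = 6.86e-04) in the pellet, where 0.0197% of the genes were called, and -3.56 (SE 0.187, edgeR adjusted p = 0.00580) in fraction 5/6, where 0.0445% were called. With a replicate block they were -2.92 (edgeR adjusted p = 0.0837) and -3.57 (edgeR adjusted p = 0.208), and neither was called. The low nuclease RNA of Fmr1 measured 33.8, 12.3 and 28.0 CPM in WT and 6.79, 1.92 and 2.62 CPM in FMR1 KO. FMR1 KO kept 15.3% of the WT mean in this RNA, with libraries at 7.78% to 27.5% of it. Each FMR1 KO library lay below each WT library, as for 0.108% of all genes, but the fold change of -1.58 did not pass the test (SE 0.580, edgeR adjusted p = 0.859). That comparison called 0% of the genes, with 342 at an unadjusted p under 0.05 and 1 called by DESeq2. Without the 3 libraries dominated by 10 genes, which leaves 2 WT libraries and 1 FMR1 KO library, it was -2.12 (edgeR adjusted p = 7.11e-04), a test in which the lone FMR1 KO library is assumed to vary like those of WT.

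Enrichment, the ratio of pellet to fraction 5/6, did not pass the test for Fmr1. In the standard preparation the interaction with genotype was -0.46 (95% interval -2.97 to 2.05, edgeR adjusted p = 0.961), and it was 0.08 (-0.38 to 0.54) without the library labelled WT fraction 5/6 standard replicate 3. For Fxr1 the enrichment difference was 0.11 (-0.32 to 0.55) with that library and 0.21 (-0.16 to 0.57) without it. For Fxr2 it was 0.14 (-0.26 to 0.55) and 0.18 (-0.21 to 0.57). edgeR called 0% of the genes here, 770 had an unadjusted p under 0.05, and DESeq2 called 41. In the low nuclease preparation the Fmr1 interaction was 0.60 (unadjusted p = 0.0112, edgeR adjusted p = 0.585). The Fxr1 interaction there was 0.52 (95% interval 0.19 to 0.86, unadjusted p = 0.00597, edgeR adjusted p = 0.585) and that of Fxr2 0.07 (-0.26 to 0.39), and 2 genes were called. The Fmr1 value is opposite in sign to the standard one only with the library labelled WT fraction 5/6 standard replicate 3.

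The paralogs did not pass the test in any comparison of the genotypes. Fxr1, whose protein is also abundant in muscle, measured 70.1, 76.5 and 66.2 CPM in WT pellets and 84.0, 55.4 and 82.3 CPM in FMR1 KO pellets of the standard preparation. The FMR1 KO values lay on both sides of the WT values, with 1 library below and the other two above. The log2 fold change was 0.09 with a 95% interval of -0.11 to 0.29. Fxr2, the paralog best known from the nervous system, measured 74.0, 70.4 and 61.2 CPM in the WT pellets and 66.8, 53.0 and 80.3 CPM in the FMR1 KO pellets. These ranges also overlapped, and the log2 fold change was -0.01 with an interval of -0.26 to 0.25. In this comparison, whose values are relative to other genes, the intervals reach up to 0.29 for Fxr1 and 0.25 for Fxr2, whereas Fmr1 fell by 3.72.

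In the RNA-seq of the standard preparation, Fxr1 measured 58.7, 55.9 and 59.5 CPM in WT and 58.4, 66.5 and 58.0 CPM in FMR1 KO, with a log2 fold change of 0.10 (95% interval -0.13 to 0.33). Fxr2 measured 65.4, 87.6 and 84.6 CPM in WT and 78.0, 73.9 and 76.7 CPM in FMR1 KO, with a log2 fold change of -0.03 (-0.30 to 0.24). Both genes overlapped between the genotypes, and the replicates of Fxr2 in WT spread more widely than those of FMR1 KO. The occupancy difference was -0.03 (-0.32 to 0.26) for Fxr1 and 0.00 (-0.37 to 0.37) for Fxr2.

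Fraction 5/6 of the standard preparation held 107, 72.7 and 78.7 CPM of Fxr1 in the libraries labelled WT and 85.4, 107 and 119 CPM in FMR1 KO. For Fxr2 the values were 97.4, 62.4 and 80.0 CPM and 69.5, 91.3 and 103 CPM. The groups overlapped for both genes, and the library that was low in Fmr1 lay in the middle of its group for both paralogs. The log2 fold changes were -0.04 (95% interval -0.47 to 0.40) and -0.16 (-0.52 to 0.20), and both turned positive, at 0.27 and 0.14, when library size alone was used for scaling. That scaling moved the median of all genes from -0.025 to 0.28, and relative to it both genes kept the values -0.01 and -0.14. Without the library labelled WT fraction 5/6 standard replicate 3 the fold changes were -0.15 (-0.54 to 0.23) and -0.22 (-0.59 to 0.14).

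Among the paralogs, Fxr1 in the low nuclease preparation came closest to a difference. Its fraction 5/6 held 112, 113 and 117 CPM in WT and 90.2, 84.6 and 98.0 CPM in FMR1 KO, so every FMR1 KO library lay below every WT library. Its pellet held 66.8, 70.8 and 68.4 CPM in WT and 78.4, 71.1 and 74.6 CPM in FMR1 KO, and here every FMR1 KO library lay above. The log2 fold changes were -0.33 (95% interval -0.59 to -0.08, unadjusted p = 0.0182, edgeR adjusted p = 0.573) in fraction 5/6 and 0.22 (-0.04 to 0.48, unadjusted p = 0.0799, edgeR adjusted p = 0.907) in the pellet. Groups lay apart and lower in FMR1 KO for 7.8% of all genes in that fraction 5/6 comparison, and apart and higher for 1.99% in that pellet comparison. Neither passed the correction, and in the standard preparation the Fxr1 libraries of the genotypes overlapped in both materials. Fxr2 in the low nuclease preparation had log2 fold changes of 0.16 (-0.08 to 0.40) in the pellet and 0.06 (-0.17 to 0.30) in fraction 5/6.

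**Figure D2:**
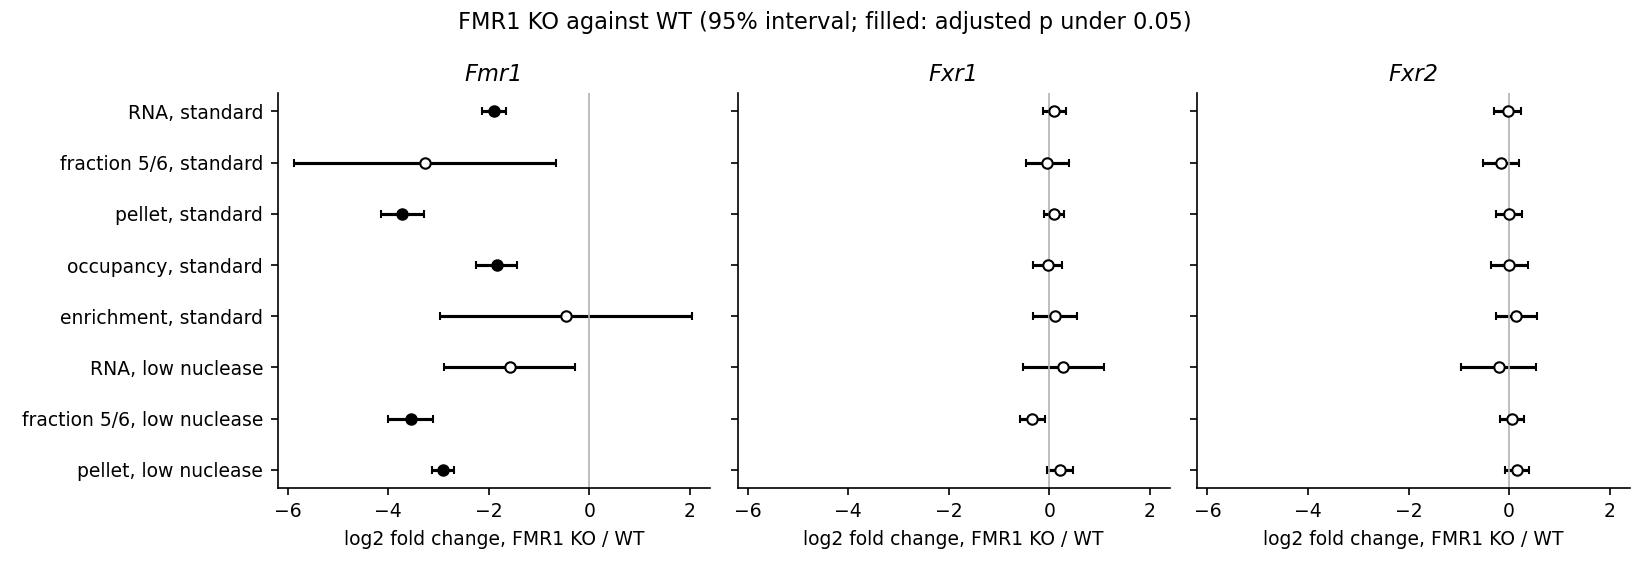
Log2 fold change of FMR1 KO against WT for each gene (x axis) in each material and preparation and for occupancy and enrichment of the standard preparation (y axis), with 95% intervals over 3 libraries per group; filled points passed an adjusted p of 0.05. Fmr1 lies at -3.72 in the standard pellet and -1.90 in the standard RNA, and the intervals of Fxr1 and Fxr2 include 0 except that of Fxr1 in low nuclease fraction 5/6.

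Across the 12 groups the order of the levels differed between the genes. Fmr1 was highest in WT fraction 5/6 of the low nuclease preparation, at 99.6 ± 14.1 CPM (SD, n = 3), and this group lay apart from the next. The other WT groups followed, from 66.5 CPM in the standard pellet to 24.7 CPM in the low nuclease RNA, each overlapping its neighbour in the order. They include standard fraction 5/6, which holds the library that goes against its label. The FMR1 KO groups came last, led by the standard RNA at 17.1 CPM, which lay apart from FMR1 KO fraction 5/6, and the standard pellet at 4.84 CPM lay apart from the low nuclease pellet at 7.69 CPM. For Fxr1 the order ran by material, with the fraction 5/6 groups first (114 ± 2.81 CPM at the most), the pellets next and RNA last. The low nuclease WT pellet at 68.7 CPM lay apart from the next group, FMR1 KO standard RNA at 61.0 CPM, but the libraries of the FMR1 KO standard pellet (55.4 to 84.0 CPM) overlapped both groups of standard RNA. For Fxr2 every group overlapped its neighbour. Low nuclease FMR1 KO fraction 5/6 came first at 94.5 ± 2.80 CPM. Low nuclease FMR1 KO RNA came last at 44.9 ± 61.8 CPM. The low nuclease RNA means include the libraries dominated by a few genes, WT replicate 2 and FMR1 KO replicates 2 and 3. In FMR1 KO RNA, Fxr2 measured 12.1 and 6.36 CPM in replicates 2 and 3 but 116 CPM in replicate 1. Its last place therefore rests on the dominated libraries. Fmr1 in WT RNA measured 12.3 CPM in replicate 2 against 33.8 and 28.0 CPM. Fxr1 RNA in the remaining low nuclease libraries, at 37.0 to 42.2 CPM, still lay below all standard RNA libraries.

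Levels of different genes can be compared only per length, and the order then depends on the length used. Per kilobase of annotated exon, WT pellet levels in the standard preparation were 18.2 ± 1.75 CPM for Fxr2, 10.8 ± 0.793 for Fxr1 and 7.42 ± 0.191 for Fmr1 (SD, n = 3). Per kilobase of coding sequence they were 33.9 ± 3.26, 34.9 ± 2.56 and 35.1 ± 0.903, and the 3 genes overlapped. RPFs come mostly from coding sequence, whereas the exon union also counts UTRs and exons of rarer transcripts. On the exon scale Fmr1 made up 20.4 ± 0.926% of the family's summed level in WT pellets and 1.88 ± 0.392% in FMR1 KO pellets. The summed level was 36.4 ± 2.50 CPM per kilobase in WT and 29.5 ± 5.85 in FMR1 KO, and the ratio of Fxr2 to Fxr1 was 1.68 ± 0.134 and 1.58 ± 0.172. On the coding scale the Fmr1 share was 33.8 ± 1.20% in WT pellets and 3.65 ± 0.763% in FMR1 KO pellets, and the ratio of Fxr2 to Fxr1 was 0.972 ± 0.0773 and 0.913 ± 0.0996.

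All 3 mRNAs had more pellet RPFs than RNA in WT, relative to other genes. In the standard preparation the log2 difference between WT pellet and WT RNA was 1.20 for Fmr1 (SE 0.112, edgeR adjusted p = 6.57e-05), 1.44 for Fxr1 (SE 0.0952, adjusted p = 1.51e-05) and 0.95 for Fxr2 (SE 0.144, adjusted p = 7.83e-04). Of all genes tested here, 65.5% were called and 31.2% were called higher in the pellet, so a call by itself does not set the members apart. In FMR1 KO the paralogs had this direction too, in which 31.9% of all genes were called, with 1.37 (SE 0.106, edgeR adjusted p = 4.27e-05) and 0.91 (SE 0.0863, adjusted p = 1.04e-04). Fmr1 had the opposite sign there, -0.69 (SE 0.170, edgeR adjusted p = 0.00990), in a comparison that called 67.1% of all genes, with 35.2% called lower. With all groups of the preparation in 1 fit, the Fmr1 values were 1.30 (adjusted p = 0.0935) and -0.54 (adjusted p = 0.498), and neither was called.

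These values depend on how pellet and RNA libraries are scaled to each other. With library size alone the WT values became 0.04, 0.29 and -0.21 for Fmr1, Fxr1 and Fxr2, none of them called, while the median of all genes moved from -0.11 to -1.26. Relative to that median the values were 1.30, 1.55 and 1.05 under both scalings. In FMR1 KO they were -0.62, 1.44 and 0.98 with TMM and -0.65, 1.45 and 0.98 with library size alone.

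**Figure D3:**
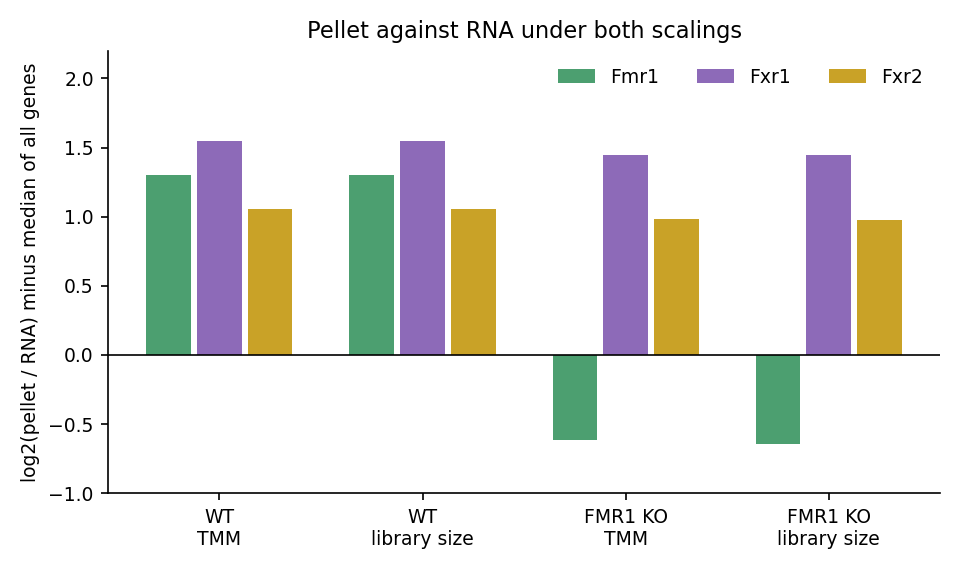
Log2 ratio of pellet RPFs to RNA of Fmr1, Fxr1 and Fxr2, minus the median over all genes tested, in the standard preparation; groups along the x axis are WT and FMR1 KO, each under TMM scaling and under library size alone. Fxr1 and Fxr2 lie between 0.98 and 1.55 in both genotypes, and Fmr1 moves from 1.30 in WT to below 0 in FMR1 KO.

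Pellet and fraction 5/6 were compared next within each genotype. In the low nuclease WT libraries all 3 mRNAs were lower in the pellet, by log2 differences of -0.56 for Fmr1 (SE 0.106, edgeR adjusted p = 0.0189), -0.61 for Fxr1 (SE 0.103, adjusted p = 0.0151) and -0.37 for Fxr2 (SE 0.0955, adjusted p = 0.0409). The pellet and fraction 5/6 libraries of this comparison did not overlap for any of the 3, and 29.5% of all genes were apart and lower in the pellet. Of all genes, 22.9% were called and 8.6% were called lower in the pellet. Fmr1 and Fxr1 were no longer called without WT pellet replicate 1 or 3 (adjusted p up to 0.0707 and 0.058), and Fxr2 was not called after any single library was left out (adjusted p = 0.0603 to 0.124). With all groups of the preparation in 1 fit none of the 3 was called (edgeR adjusted p = 0.433, 0.0978 and 0.361). In low nuclease FMR1 KO the differences were 0.04, -0.09 and -0.30 (edgeR adjusted p = 0.898, 0.625 and 0.119), where 20.6% of the genes were called.

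In the standard preparation none of the 3 passed the test between pellet and fraction 5/6. The WT differences were 0.17, -0.28 and -0.22 for Fmr1, Fxr1 and Fxr2 (edgeR adjusted p = 0.962, 0.643 and 0.643), with 0.023% of the genes called. Without the library labelled WT fraction 5/6 standard replicate 3 the values were -0.39, -0.39 and -0.27 (edgeR adjusted p = 0.0795, 0.0518 and 0.182), with 9.64% of the genes called. The FMR1 KO differences were -0.34, -0.21 and -0.11 (edgeR adjusted p = 0.280, 0.330 and 0.591), with 11.5% of the genes called.

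Proteins that work with FMRP, and mRNAs classically studied as its targets, were measured in the same libraries. Of 20 partner genes, 0 were called between the genotypes in any material, occupancy or enrichment, where edgeR called 0% to 0.0736% of all genes. In the standard pellet their median log2 fold change was -0.02, from -0.27 for Dicer1, which processes small RNAs, to 0.24 for Tdrd3, a scaffold of the topoisomerase Top3b. Between WT pellet and WT RNA, where 31.2% of all genes were called higher and 65.5% in either direction, 11 partners were higher and 3 lower. Ncl, the nucleolar protein nucleolin, was higher by 2.23 and Cyfip1, which links FMRP to actin regulation, by 2.10, while Ybx1, a packaging protein of mRNA, was lower with -3.38. In the FMR1 KO pellet against fraction 5/6 of the standard preparation 3 partners were higher and 1 lower, where 9.11% of all genes were called higher and 2.41% lower. Cyfip1 was higher by 1.61 (edgeR adjusted p = 0.00420), Upf1, a factor of nonsense-mediated decay, by 0.68 and Dicer1 by 0.64, and Nufip1, which binds FMRP in the nucleus, was lower with -0.65.

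Of 10 target mRNAs, 0 were called between the genotypes in the same comparisons, with the same 0% to 0.0736% of all genes called. Their median in the standard pellet was -0.11, from -0.49 for Camk2a, a synaptic kinase, to 0.04 for Nlgn3, a synaptic adhesion protein. Between WT pellet and WT RNA 6 were higher and 2 lower, against the same 31.2% of all genes higher, with Map1b, a microtubule protein of growing axons, at 2.36 and Dlg4, the postsynaptic scaffold PSD-95, at -1.98. Between FMR1 KO pellet and fraction 5/6 of the standard preparation 6 were higher and 0 lower, beside 9.11% and 2.41% of all genes, led by Map1b at 2.64 and Mtor, a growth kinase, at 2.53. In WT the same comparison called 0 targets and 0 partners, where 0.023% of all genes were called. In the low nuclease preparation pellet against fraction 5/6 called 6 targets higher and 0 lower in WT and 3 and 0 in FMR1 KO. Of the partners, 3 were higher and 3 lower in WT and 3 and 1 in FMR1 KO. Of all genes, 22.9% and 20.6% were called there, 2225 higher and 1339 lower in WT and 1372 and 1837 in FMR1 KO. The difference between the genotypes in these counts was not tested. Without the library labelled WT fraction 5/6 standard replicate 3, WT pellet against fraction 5/6 called 4 targets higher and 0 lower, and 4 partners higher and 1 lower, with 9.64% of all genes called in either direction.

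The genes whose pattern over the 18 standard libraries was most like that of each member were found by Pearson correlation of log2 CPM over 15892 genes. For Fmr1 they were Wdfy1 (r = 0.92), Nebl (0.92) and Igsf9b (0.78). For Fxr1 they were Rbm39 (0.98), Ash2l (0.98) and Utp6 (0.98), and for Fxr2 Pwwp3a (0.96), Gm20604 (0.94) and Hexim1 (0.94). The members were less like each other, with r = -0.25 for Fmr1 and Fxr1, 0.04 for Fmr1 and Fxr2 and 0.55 for Fxr1 and Fxr2. Without the library labelled WT fraction 5/6 standard replicate 3, the third gene was Eva1a for Fmr1 (0.80) and Dnajb4 for Fxr1 (0.98), and the others stayed the same. All of these share libraries and the large gap between RPF and RNA libraries. Wdfy1 measured 27.1 ± 4.14 CPM in pellets of WT and 2.26 ± 0.167 CPM in those of FMR1 KO (SD, n = 3), and it was thus low in the same groups as Fmr1.

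Peaks of RPF coverage, places where protected fragments pile up on an mRNA, were listed by the authors for each of the 12 standard RPF libraries. Fxr2 had 131 peaks and at least 4 in every library. Fxr1 had 8 peaks in 4 libraries, and Fmr1 had 2 peaks, both in WT fraction 5/6 replicate 1. The WT pellets held 4, 17 and 11 Fxr2 peaks and the FMR1 KO pellets 18, 15 and 15, while fraction 5/6 held 4, 8 and 15 in the libraries labelled WT and 11, 9 and 4 in FMR1 KO. The genotypes overlapped in both materials, with means of 10.7 ± 6.51 and 16 ± 1.73 in the pellet and 9 ± 5.57 and 8 ± 3.61 in fraction 5/6 (SD, n = 3 each). The 15 peaks of fraction 5/6 came from the library that goes against its label, without which WT held 4 and 8. Of the Fxr2 peaks, 117 lay in the coding sequence, 14 in the 5′ UTR and 0 in the 3′ UTR. Peak heights on Fxr2 ran from 1 to 44 with a median of 15.

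**Figure D4:**
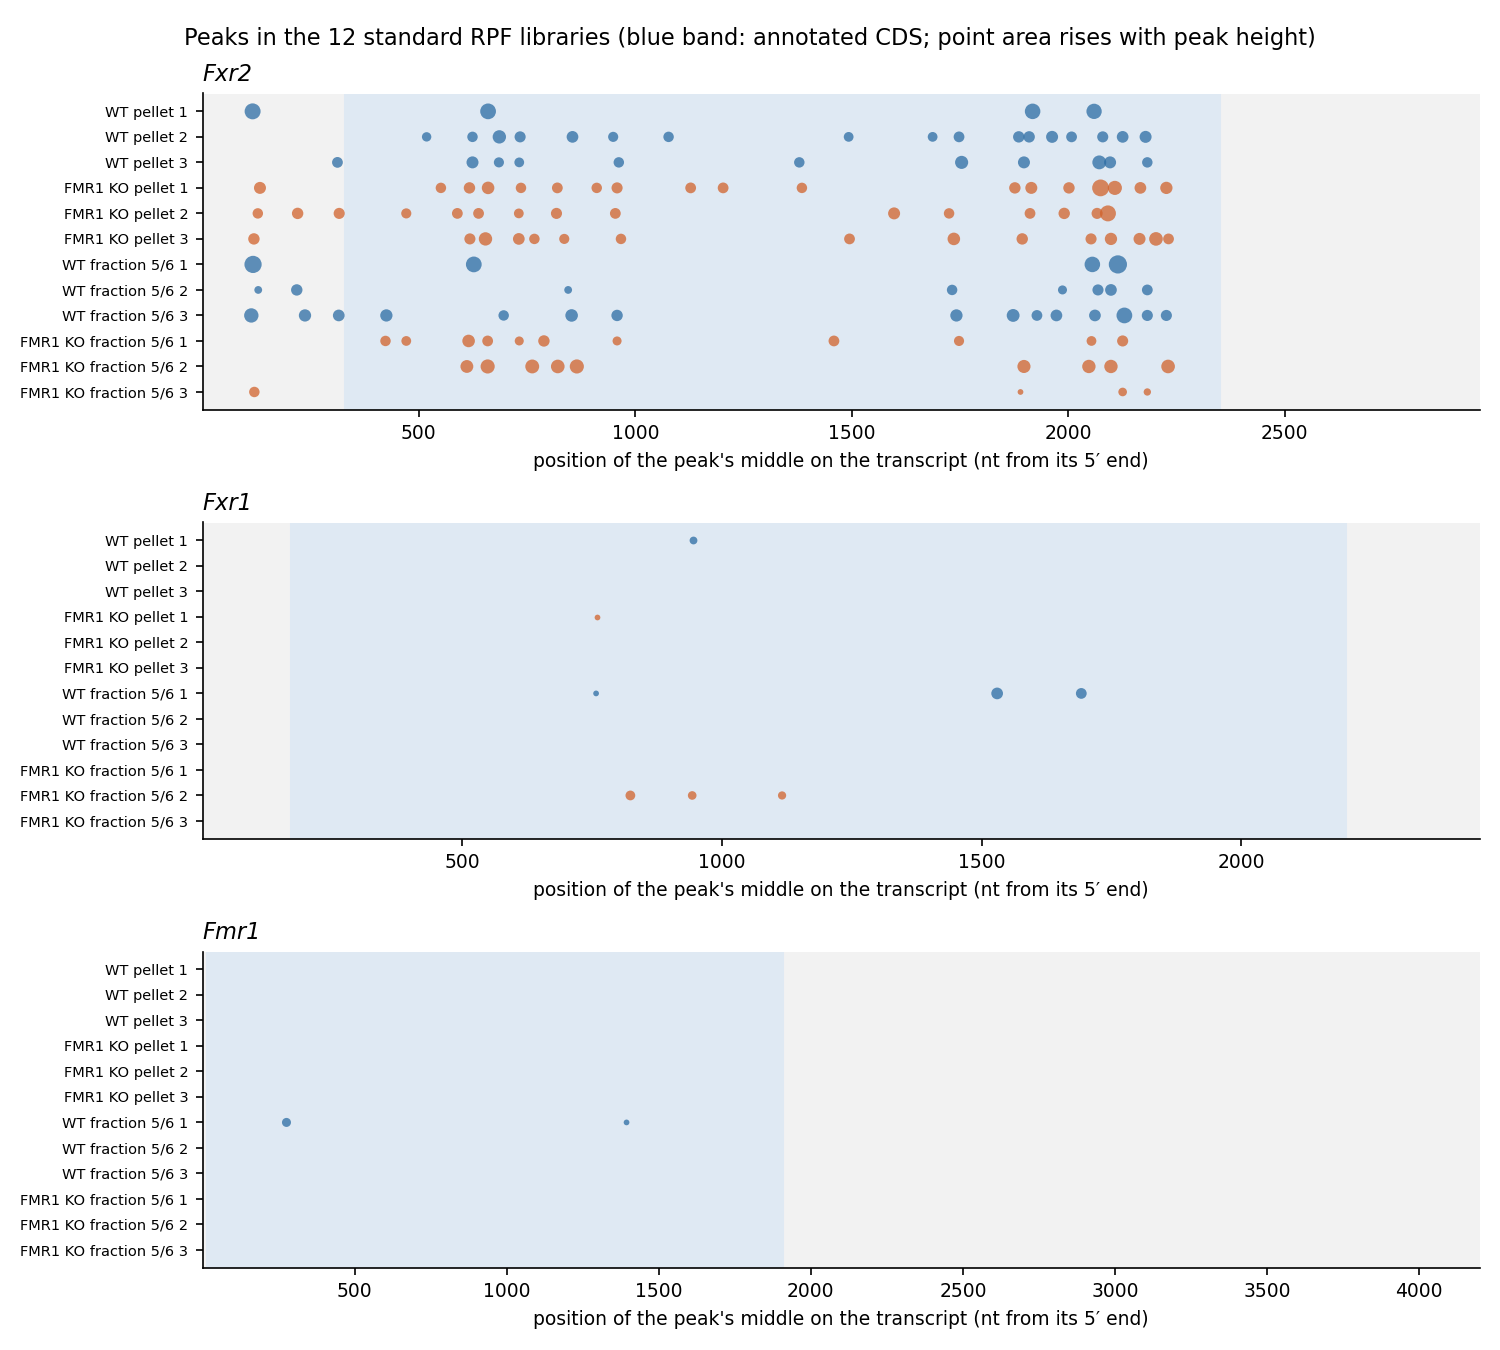
Position of each listed peak on the listed transcript of Fmr1, Fxr1 and Fxr2 (x axis, nt from its 5′ end) in the 12 standard RPF libraries (y axis). The band marks the coding sequence and point area rises with peak height, which is not scaled between libraries; all 131 Fxr2 peaks lie before or within its coding sequence, and Fxr1 and Fmr1 have 8 and 2.

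Fmr1 held 39 to 90 counts in 7 of these libraries, the 6 of FMR1 KO and the one that goes against its label, and 604 to 1663 in the other 5, where its CPM was close to that of Fxr1 and Fxr2. The annotation lists 1 coding transcript for Fxr2, 6 for Fxr1 and 6 for Fmr1. Of the 29-nt stretches of the listed transcript, 46.3% occur in no other annotated transcript of the same gene for Fxr2, 10.8% for Fxr1 and 0% for Fmr1. Peaks were also fewer with more coding transcripts over other genes whose count lay within 2-fold of that of Fxr2. With 1 coding transcript, 72.6% to 85.5% of such genes had a peak in a library, with a median of 4 to 7 peaks. With 6 or more coding transcripts 7.66% to 31.9% had a peak and the median was 0. The part of multiple transcripts, and of low counts, in the missing peaks of Fmr1 and Fxr1 was not tested. Within Fxr2, the libraries with most counts were not those with most peaks. The libraries with 1575 and 1618 Fxr2 counts, the deepest 2, had 4 peaks each, and their lowest peak heights were 30 and 31.

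**Figure D5:**
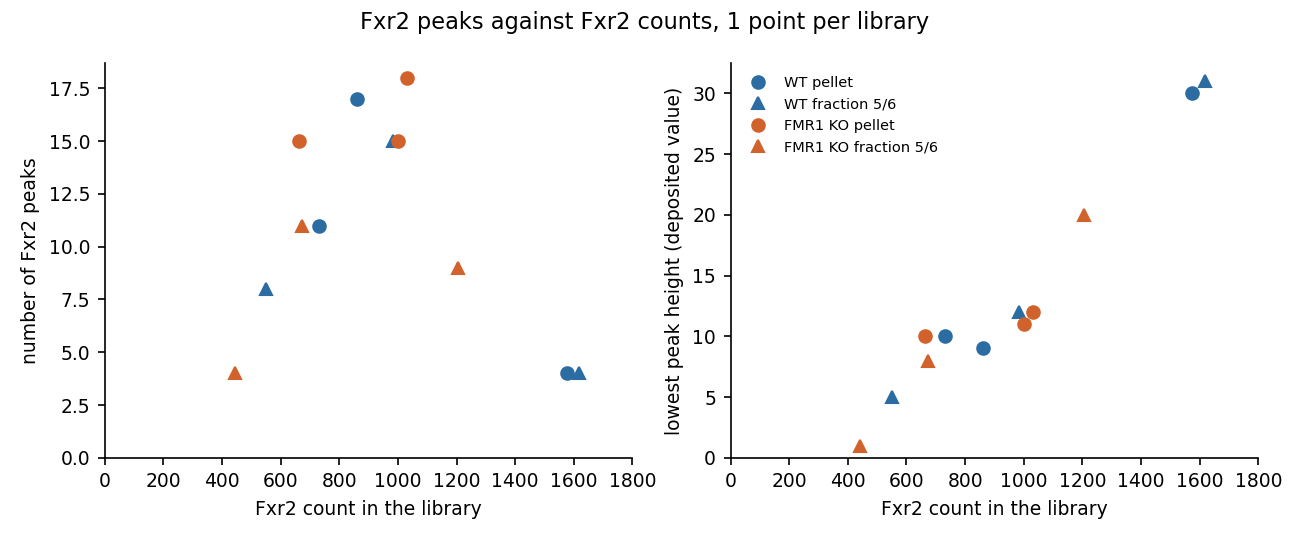
Number of Fxr2 peaks and lowest height of an Fxr2 peak (y axes) against the Fxr2 count (x axis) in the 12 standard RPF libraries, 1 point per library. The 2 deepest libraries, with 1575 and 1618 counts, have 4 peaks each and no peak lower than 30.

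To compare peaks between libraries, middles of peaks that lay within 6 nt of a neighbour were joined into sites, and the 131 Fxr2 peaks formed 52 sites. Of these, 22 held peaks of both genotypes, 12 of libraries labelled WT only and 18 of FMR1 KO only, and 24 were seen in a single library, a split that moves with the matching distance (18, 27, 35 and 53 with 3 nt). Of the 52 sites, 5 were seen in 6 or more libraries, 3 without the library labelled WT fraction 5/6 standard replicate 3 and 1 with a matching distance of 3 nt. Without that library, 116 peaks formed 50 sites, 21 of both genotypes, 8 of WT only and 21 of FMR1 KO only. Between 2 pellet libraries of the same genotype, 17.5 ± 17.1% of Fxr2 peaks were matched (SD over 6 pairs), and between pellet libraries of different genotypes 26.5 ± 7.80% (9 pairs). The matched share of all transcripts had medians of 17.7% to 25.8% within a genotype and 19.6% to 23.6% between genotypes. Pairs share libraries and were not tested.

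The windows that follow show 3 of the 5 Fxr2 sites that were seen in 6 or more libraries, because these sites recurred between libraries when all libraries were used. Each is 30 nt of the listed transcript on the plus strand, written 5′ to 3′, with the middle of the site in capitals, and was read through the GRCm38 genome annotation.
Fxr2 site 44: acagagaatggccTGGaagatgaatcaaga
Fxr2 site 35: caggacctggtgaCAGagatcccccaagcc
Fxr2 site 16: tgcaaccaaaggcAGCttcttcaaggttac

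Site 44 was the most recurrent, with peaks in 11 of 12 libraries, all 6 pellets among them. Its peak middles spread from 2048 to 2080 on the transcript, in exon 14 and exon 15 near the 3′ end of the coding sequence, and its heights ran from 10 to 37. Its neighbouring peaks are joined in part by the library labelled WT fraction 5/6 standard replicate 3, without which no site was seen in more than 7 libraries. Site 35 (chr11:69651305-69651334, exon 13) and site 16 (chr11:69641530-69641559, exon 5) had peaks in 6 libraries each. Without the library that goes against its label, site 35 splits into parts seen in 3 and 2 libraries, site 44 into parts seen in 5 libraries each, and site 16 stays at 6. Site 16 was seen in 5 of the 6 pellets and in 1 library of fraction 5/6, and site 35 in 3 of each material. Sites 11 and 25, in 7 libraries each, are shown with the sites of the paralogs. The tallest Fxr2 peak, of height 44, stood at position 2115 in WT fraction 5/6 replicate 1 and in no other library.

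Before the annotated start codon lay 14 of the 131 Fxr2 peaks, or 10.7%, in 5 sites, and 9.48% without the library labelled WT fraction 5/6 standard replicate 3. They numbered 2 in the WT pellets, 5 in the FMR1 KO pellets, 6 in fraction 5/6 labelled WT and 1 in FMR1 KO fraction 5/6. Of the 6, 3 came from the library that goes against its label. Over all transcripts 1.59% of 275087 peaks lay before the start codon. Among the 494 transcripts with at least as many peaks as Fxr2, 15 (3.04%) had as large a share. Neither background was matched for the length of the 5′ UTR, which is 328 nt in Fxr2, so an excess cannot be read from them. The most recurrent site of the 5′ UTR is shown with the annotated start, as each is the reference for the other's position.
Fxr2 site 1: ggtggcggagaccAAGgcagcggcggcggc
Fxr2 annotated start: ggtggtggcggcgccATGggcggcctggcc

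Site 1 (chr11:69633092-69633121, exon 1) lies 212 nt before the start codon (ATG in capitals, chr11:69633303-69633332). It held peaks in 5 libraries (4 without the library that goes against its label), with heights of 12 to 39, from both genotypes and both materials. The other 4 sites of the 5′ UTR were seen in 1 to 3 libraries. The reading frame of the start codon has no stop in the 327 nt (109 codons) before it, up to the 5′ end of the transcript, and the 5′ UTR holds 0 ATG. Of 10811 coding transcripts with a 5′ UTR at least as long, 7.98% have a frame without a stop over the same 327 nt, and 3.30% up to their own 5′ end. Codons that differ from ATG by 1 base lie in this frame near site 1, among them an AAG 213 nt before the start, with 7 peaks within 15 nt and 8 within 30 nt, and a GTG 225 nt before it, with 5 and 8. Peaks in this region are a description of coverage and were not tested as starts of translation.

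The few peaks of Fmr1 and Fxr1 were placed on Fxr2 through an alignment of the translated coding sequences. Of 8 sites on Fmr1 and Fxr1, 5 fell within 6 nt of the middle of an Fxr2 peak. Of all aligned positions, 36.4% for Fmr1 and 37.7% for Fxr1 lie within 6 nt of one. This comparison was made after the values had been seen, and it has no test. Of these 5 pairs, 3 are shown, those that share 20 or more bases and whose Fxr2 site was seen in 5 or more libraries, each as 30 nt of the plus strand with the aligned middle in capitals.
Fmr1 site 1: aaagtgaggatgaTAAagggtgagttttat
Fxr2 site 11, aligned: cgggtgcggatgaTGAagggagatttctat
Fxr1 site 1: ttcggacgaagttGATgcttatgtccagaa
Fxr2 site 25, aligned: ttcgcaccaaattGCTgctcatgtcccgca
Fxr1 site 6: gcaatccatacagCTTacttgataatacag
Fxr2 site 37, aligned: gcaatccttacagCCTcttggacacatctg

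The Fmr1 and Fxr2 windows share 22 of 30 bases, and the Fmr1 position lies 1 nt from a peak of Fxr2 site 11, which had peaks in 7 libraries with heights of 12 to 32. The windows of Fxr1 site 1 and Fxr2 site 25 share 23 of 30 bases, and site 25 had peaks in 7 libraries, 5 of them pellets. The windows of Fxr1 site 6 and Fxr2 site 37 share 20 of 30 bases, and site 37 had peaks in 5 libraries. Fxr1 sites 3 and 5 aligned near Fxr2 sites 27 and 35. The other site of Fmr1 and the other 2 sites of Fxr1 lay 38 to 75 nt from the nearest Fxr2 peak.

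Short motifs that have been tied to FMRP binding were counted in the 30-nt windows of the 52 Fxr2 sites, on the transcript strand only. AGGA stood in 12 windows (23.1%), against 22.1% of the 275050 windows around all listed peaks. TGGA stood in 8 windows (15.4%), against 23.9%. GACAAG stood in 0 windows, against 1.76%.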

How the data were processed

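Members and gene lists were chosen with earlier results of these data known. Per the labels and the methods, the authors trimmed reads with cutadapt 2.10, removed ribosomal and other non-coding reads with Bowtie2 2.3.5, aligned to GRCm38 with STAR 2.7.8a, removed duplicates with Picard and SAMtools 1.19.2, and counted with featureCounts 2.2.0. The deposited counts are raw reads per gene. Library barcodes mark samples and not molecules. The deposited peak heights are a coverage signal, called by the authors in each library on Ensembl 102 transcripts and not scaled between libraries; their methods ask that a peak's highest point be 4 times the average over its transcript, which was not tested on the lists.

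CPM used totals without Cdk8. Protein-coding genes (16561 by GENCODE M21, GRCm38) passing filterByExpr in the compared groups were tested with edgeR 4.0.16 (TMM, quasi-likelihood, Benjamini-Hochberg over all genes tested, threshold 0.05) in R 4.3.3 with limma 3.58.1. Occupancy and enrichment are interactions of genotype with material. The middle of a peak's interval was taken as its position, and positions within 6 nt were matched. The matched share of 2 libraries is the mean of the shares of each library's peaks. Coding sequences were translated and aligned with Biopython 1.88 (BLOSUM62, gap costs 11 and 1). Peaks and figures used numpy 2.4.6, pandas 2.3.3, matplotlib 3.10.9 and scipy 1.17.1 under Python 3.11.15. The code was tested on simulated data.

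Named besides the members were Cdk8, Wdfy1, the Y-linked genes, overlapping genes, the 3 genes most like each member, and partners and targets past the threshold or at the ends of their list's range. Alternatives were DESeq2 1.42.0, library size alone, no filter, every biotype, a replicate block, all groups in 1 fit, each library left out, and other peak settings. The values printed come from fits without a replicate block. Deviations of same-numbered libraries correlated above 0.1 for every number only between pellet and fraction 5/6 of low nuclease WT (0.107 to 0.214). The block was an alternative there that called 5029 genes against 3564. In FMR1 KO these correlations were positive too, at 0.357, 0.130 and 0.043 in low nuclease data and 0.016, 0.163 and 0.250 in the standard preparation. The protein-level and imaging data were not analysed here.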

Additional observations from a re-analysis of the deposited data

Results flagged for a closer look

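The effect of the genotype on Fmr1 differed between pellet RPFs and RNA of the standard preparation. The interaction was -1.84 on the log2 scale (edgeR's quasi-likelihood test, adjusted p = 0.00218), with the pellet of FMR1 KO at 7.28% of WT and the RNA at 26.3%. The lower ratio was seen when each FMR1 KO library was left out in turn and when each WT library was, with adjusted p from 1.30e-04 to 0.0145. With all groups of the preparation in 1 fit it was -1.85 (95% interval -3.85 to 0.15, edgeR adjusted p = 1) and was not called. The FMR1 KO RNA libraries also held 8 to 16 Ddx3y counts where the FMR1 KO pellets held 421 to 588, and the part of the sex of the pooled brains in this result was not tested.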

How the results depend on the processing

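Outside the left-out libraries, 236 of 270 log2 fold changes kept their direction and their side of the threshold, 15 lost a call, 5 gained one and 14 changed sign; with each library left out in turn the same held for 255 of 288, with 10 calls lost, 2 gained and 21 sign changes. Library size alone, one of these settings, moves all genes together (the median of all genes to -1.26 for WT pellet against RNA), so its sign changes are not changes relative to other genes. The cause of the others was not tested. FMR1 KO pellets of the standard preparation held 60 to 76 Fmr1 counts.

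With the replicate block, Fmr1 was -3.73 (adjusted p = 0.223) in the standard pellet, -2.92 (adjusted p = 0.0837) in the low nuclease pellet and -3.57 (adjusted p = 0.208) in low nuclease fraction 5/6, and Fxr2 occupancy was -0.0066. The block called 0 genes in the standard pellet, against 2 without it and 66 by DESeq2. Between pellet and fraction 5/6 of low nuclease WT it changed no call of a member.

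With all groups of a preparation in 1 fit, Fmr1 was -3.73 in the standard pellet, -1.89 in RNA, -1.85 for occupancy, 1.30 for WT pellet against RNA and -0.54 for FMR1 KO, none of them called, and Fxr2 occupancy was -0.00035. These values come from fits that include the library labelled WT fraction 5/6 standard replicate 3. Low nuclease WT pellet against fraction 5/6 gave -0.57, -0.62 and -0.37 for Fmr1, Fxr1 and Fxr2, also not called.

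With library size alone, Fxr1 and Fxr2 were 0.27 and 0.14 in standard fraction 5/6, -0.21 and -0.18 for enrichment, 0.29 and -0.21 for WT pellet against RNA, and 0.28 and -0.19 for FMR1 KO pellet against RNA. Fmr1 was 0.04 for WT pellet against RNA. In low nuclease data Fxr1 was -0.71 in RNA, and FMR1 KO pellet against fraction 5/6 gave -0.14, -0.28 (adjusted p = 0.0431) and -0.50 (adjusted p = 0.00694) for Fmr1, Fxr1 and Fxr2. DESeq2 gave -3.26 for Fmr1 in standard fraction 5/6 and -0.027 for Fxr2 occupancy.

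Chosen after seeing the data were fits of both preparations together, the low nuclease interaction and the removal of libraries that stand apart, for peaks and lists too. Both preparations gave 0.066 for Fxr2 in the pellet and -1.77 for Fmr1 in RNA (adjusted p = 0.136), and -3.67 for Fmr1 in fraction 5/6 without the library labelled WT replicate 3 (adjusted p = 4.51e-07). The low nuclease enrichment of Fmr1 was 0.60, and without 3 libraries, which leaves 1 FMR1 KO library that is assumed to vary like the 2 of WT, low nuclease RNA gave -2.12 for Fmr1 and 0.087 for Fxr2.

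With 1 library left out, Fxr2 ranged from -0.061 to 0.064 in the standard pellet, from -0.15 to 0.055 in RNA, from -0.089 to 0.12 for occupancy and from -0.14 to 0.036 for FMR1 KO pellet against fraction 5/6, and Fxr1 from -0.11 to 0.068 for occupancy. Standard fraction 5/6 ranged from -3.83 to -2.82 for Fmr1 and from -0.15 to 0.073 for Fxr1, Fmr1 enrichment from -0.89 to 0.082, and Fmr1 in WT pellet against fraction 5/6 from -0.39 to 0.59. In low nuclease data Fxr2 RNA ranged from -0.35 to 0.037. Low nuclease WT pellet against fraction 5/6 ranged from -0.62 to -0.48, from -0.69 to -0.55 and from -0.42 to -0.33 for Fmr1, Fxr1 and Fxr2, and FMR1 KO from -0.090 to 0.22 for Fmr1 and from -0.42 to -0.25 for Fxr2, which was called only without FMR1 KO pellet replicate 1 (adjusted p = 0.044).

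Counts of genes called ranged, outside the left-out libraries, from 0 to 76 in standard fraction 5/6 (0 in the main analysis), 8 to 24 in RNA (12), 5 to 63 for occupancy (11), 0 to 41 for enrichment (0), 0 to 90 for WT (3) and 173 to 2029 for FMR1 KO (1525) pellet against fraction 5/6, and in low nuclease data 0 to 88 in the pellet (3), 1 to 195 in fraction 5/6 (7), 0 to 35 in RNA (0), and 1228 to 5029 (3564) and 1002 to 5400 (3209) for WT and FMR1 KO pellet against fraction 5/6. With 1 library left out, pellet against fraction 5/6 called 0 to 1275 genes in WT and 491 to 1412 in FMR1 KO of the standard preparation, and 927 to 2545 and 336 to 2080 in low nuclease data, so the shares of all genes called beside the members move with single libraries. Fxr2 sites numbered 80 with a matching distance of 3 nt (18 of both genotypes, 27 of WT only, 35 of FMR1 KO only, 53 in 1 library), 35 with 12 nt (17, 6, 12 and 13) and 37 among peaks at or above their library's median height (12, 13, 12 and 21).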
